A study of Mus musculus with 6 samples.

Results

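Messenger RNA of the enzymes that make serine and pass its carbon to folate was compared between populations of cells that were sorted by flow cytometry from ventral midbrain tissue of E12.5 mice. The 8 genes were Phgdh, Psat1, Psph, Shmt1, Shmt2, Mthfd1, Mthfd2 and Gldc. They were chosen by name, through the gene symbol of each probe set (the short oligonucleotides that together report a transcript on the array). The group was selected on a measured value too, since it was assembled to ask whether the pathway moves with Phgdh, whose signal was known to be lower in the first population. The differences of the 8 genes between the populations are therefore a description: they carry no p-value, and a count of members past a threshold is printed beside its background and supports nothing. Of 45037 probe sets on the array other than controls, 21 carried the symbol of 1 of these genes alone, and they covered all 8 of the 18201 genes named in this way.

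The first population, called positive here, was GFP-positive cells of Ngn2-GFP mice of CD1/129 strain, where GFP marks expression of Neurog2, a proneural gene. The submitters labelled these cells midbrain dopaminergic progenitors. The second, called negative, was GFP-negative cells of Lmx1a-GFP mice of C57BL/6 strain, in which GFP reports a transcription factor of dopaminergic progenitors, and it was labelled as a non-dopaminergic progenitor population. Each population was measured on 3 arrays that the design describes as biological replicates, and how many embryos went into an array was not given in the sources used here. Reporter line, strain and sort gate coincided with the group, so their parts in any difference cannot be told apart.

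Serine is built from a glycolytic intermediate in a short chain of reactions. Phgdh oxidises 3-phosphoglycerate, Psat1 adds the amino group and Psph removes the phosphate. Shmt1 in the cytosol and Shmt2 in mitochondria then split serine into glycine and a carbon unit carried by folate, which Mthfd1 and Mthfd2 interconvert between oxidation states for the synthesis of purines and thymidylate. Gldc is the glycine-decarboxylating subunit of the glycine cleavage system, the other source of folate-bound carbon in mitochondria. In the developing brain Phgdh is known as an enzyme of neuroepithelial cells, radial glia and astrocytes more than of neurons.

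Levels are MAS5 signals on a linear scale, each array scaled by the authors to the same trimmed mean of 100. Group levels are geometric means. A difference is the log2 value in positive cells less that in negative cells, and its standard error (SE) comes from a limma fit across all tested genes. A gene was represented by its brightest tested probe set. The levels that a probe set had to exceed on at least 3 arrays to be tested, the 40th percentile of each array, were signals of 10.2 to 15.8. The number of arrays limits the precision of all values.

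Labels and arrays were checked first. Of 10 tested dopaminergic markers, 6 were higher in positive cells and none was lower, with Lmx1a, Th and Slc6a3 among the 6. Pitx3 and Msx1 stayed under the filter. Of 7 GABAergic markers, 5 were lower in positive cells and none was higher, with Tal2, Gata3 and Gata2 the furthest apart. Genes of blood cells went with the group strongly. All 5 tested erythroid markers were lower in positive cells, among them Alas2 and the embryonic globins Hbb-bh1 and Hba-x. The summed signal of the 9 measured ranged from 328 to 635 on positive arrays and from 7514 to 14936 on negative arrays. Of 6 tested macrophage markers 4 were lower, among them Csf1r, Aif1 and Tyrobp, with sums over the 12 measured of 50.8 to 85.2 and 416 to 850. Hybridization controls added to the samples averaged 2293 and 2352 on positive replicates 1 and 2, against 4254 to 6560 on the other 4 arrays. This division is named the spike-in split here, and no negative array lay on its lower side. The ratio of 3′ to 5′ Gapdh signal, a sign of RNA quality, was 4.41 and 4.73 on the same pair of positive arrays and 5.94 to 9.21 on the other 4. A comparison within the higher side sets positive replicate 3 against the 3 negative arrays, and it rests on that 1 positive array. The part of this split in the results was not tested beyond the values given with it.

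Phgdh, the first and committed enzyme of the chain, was the member with the largest difference. Its brightest probe set read 128, 216 and 237 on the positive arrays and 493, 789 and 985 on the negative arrays. Every positive value lay below every negative one, with a gap from 237 to 493 between them. In sorted populations fewer cells of a type and less RNA per cell cannot be told apart. The group levels were 187 and 726, so the signal was 3.88-fold lower in positive cells, a log2 difference of -1.96 (SE 0.29, n = 3 per group, 95% interval from -2.60 to -1.32). Of all tested genes, 0.714% had a lower value. This is the value on which the gene was picked, and nothing is read from its rank. Positive replicate 3, the positive array on the higher side of the spike-in split, had the highest Phgdh signal of its group, and against the negative arrays it gave -1.62.

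The other probe sets of Phgdh went the same way. The second brightest read 19.4, 39.0 and 28.0 on positive arrays and 121, 517 and 149 on negative arrays, a log2 difference of -2.93 (SE 0.48). The third read 25.2, 29.0 and 32.3 against 81.7, 53.1 and 85.7, or -1.32 (SE 0.36). Neither of these overlapped between the groups. The fourth stayed under the filter on all 6 arrays, with signals of 2.44 to 8.50. All 4 names end in _x_at, the manufacturer's mark for probes that can bind other transcripts. A further pair of probe sets is assigned both to Phgdh and to a processed copy, Gm6756 or Gm8096, which RefSeq lists as transcribed pseudogenes. The one shared with Gm6756 read 15.8, 21.02 and 13.8 against 59.8, 129 and 68.2, or -2.28, and the one shared with Gm8096 overlapped between groups at 1.38 to 7.34 against 2.67 to 22.8. No probe set of Phgdh was free of such a mark or assignment, so its RNA was not separated here from that of the copies. The size of the difference ranged widely among these probe sets.

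Psat1 acts directly after Phgdh, and its signal did not go down with that of Phgdh. The brightest Psat1 probe set has a name in _s_at, a mark for probes shared between transcripts. It read 726, 646 and 754 on positive arrays and 614, 673 and 711 on negative arrays. The groups overlapped, and the log2 difference was 0.09 (SE 0.19), with a 95% interval from -0.32 to 0.50. The Phgdh interval ran from -2.60 to -1.32. Phgdh was picked for its difference, so setting the intervals side by side is a description and tests nothing. The second probe set, with a name in _a_at, read 471, 506 and 499 on positive arrays against 250, 213 and 460 on negative arrays. Here every positive value lay above the negative ones, at 0.76 (SE 0.27), although negative replicate 3 came close to the positive arrays. Psph, which completes serine synthesis, has 1 probe set on the array. It read 99.9, 108 and 80.05 on positive arrays and 130, 82.6 and 134 on negative arrays. The groups overlapped, with a difference of -0.24 (SE 0.28) and a 95% interval from -0.85 to 0.37. Of the 3 enzymes that make serine, the first was thus the one whose groups stood apart on its brightest probe set.

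**Figure D1:**
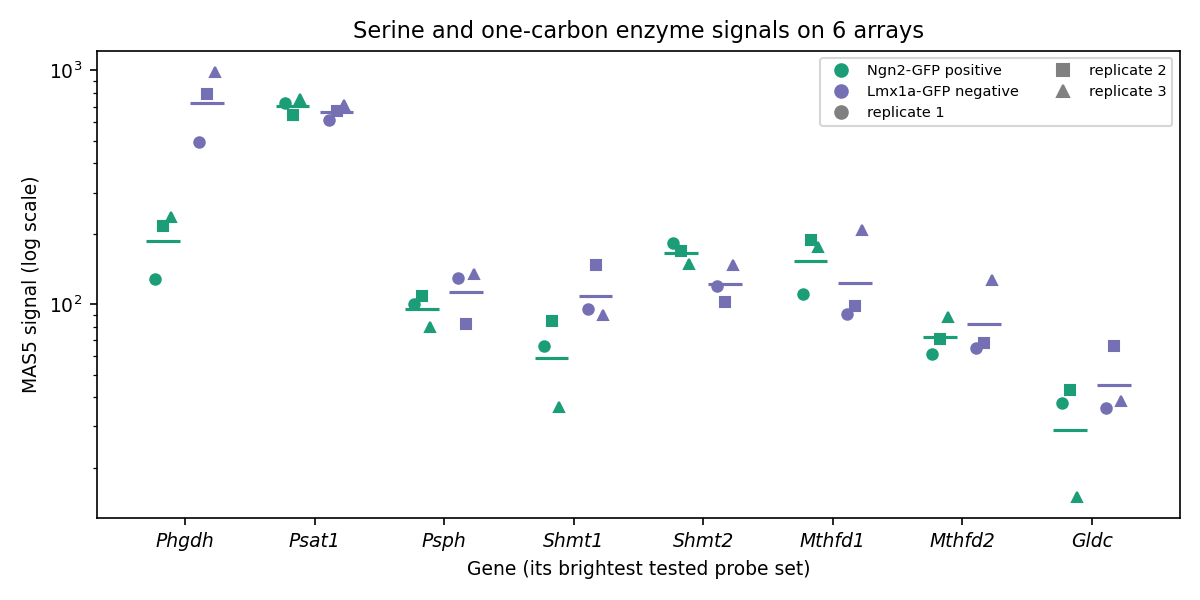
MAS5 signal on a log scale for the brightest tested probe set of each of the 8 genes, with 1 point per array (shape gives the replicate number) and a line at the geometric mean of each group of 3. Phgdh is the gene with a wide gap between the groups, with positive arrays at 128 to 237 and negative arrays at 493 to 985, while Psat1 lies between 614 and 754 on all 6 arrays.

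The sequence before the start of transcription is shown for Phgdh and Psat1, the neighbouring steps that parted, and for Shmt1 and Shmt2, which make the same cut in different compartments and whose brightest probe sets pointed opposite ways. Each is the 250 bases before the annotated start, 5′ to 3′ on the strand of the gene, from RefSeq in the GRCm38.p6 build. Capitals mark CCAAT or its reverse complement ATTGG. Phgdh lies at chr3:98339970-98340219, Psat1 (the more upstream of its 2 annotated starts) at chr19:15925060-15925309, Shmt1 at chr11:60811266-60811515 and Shmt2 at chr10:127522445-127522694, all on the minus strand.
Phgdh: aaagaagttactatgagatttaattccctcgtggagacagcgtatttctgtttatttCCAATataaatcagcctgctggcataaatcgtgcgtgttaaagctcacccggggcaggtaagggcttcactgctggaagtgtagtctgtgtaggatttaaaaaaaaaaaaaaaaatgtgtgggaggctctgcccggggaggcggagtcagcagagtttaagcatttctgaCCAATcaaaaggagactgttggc
Psat1: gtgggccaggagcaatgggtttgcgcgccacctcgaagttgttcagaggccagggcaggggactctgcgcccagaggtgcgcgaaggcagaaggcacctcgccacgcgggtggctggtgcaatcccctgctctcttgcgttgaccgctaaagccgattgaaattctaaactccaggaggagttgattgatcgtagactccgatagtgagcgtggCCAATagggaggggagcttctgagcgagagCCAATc
Shmt1: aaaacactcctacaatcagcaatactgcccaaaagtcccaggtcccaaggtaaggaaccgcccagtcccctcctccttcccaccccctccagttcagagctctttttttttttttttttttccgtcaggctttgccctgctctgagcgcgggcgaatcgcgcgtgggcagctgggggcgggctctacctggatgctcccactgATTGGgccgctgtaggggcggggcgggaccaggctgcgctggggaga
Shmt2: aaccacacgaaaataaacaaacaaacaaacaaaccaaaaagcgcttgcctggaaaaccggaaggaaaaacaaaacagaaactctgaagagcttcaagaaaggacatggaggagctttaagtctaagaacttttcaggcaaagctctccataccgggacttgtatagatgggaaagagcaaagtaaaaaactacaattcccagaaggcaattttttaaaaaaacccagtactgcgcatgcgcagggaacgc

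Both printed Phgdh and Psat1 stretches hold CCAAT at 2 places, Shmt1 has it at 1 place and Shmt2 at none. Windows of 300 bases, from 250 before to 50 after the start, were searched on both strands for 5 short motifs in all 9 windows of the 8 genes. The letters CCAAT, which the factor NF-Y is known to bind, occurred for 7 of the 8 genes (all but Shmt2), against 37.4% of the 32851 windows in the table. The GC box GGGCGG occurred for 5 genes, against 35.7% of windows, and TATAAA for 1, Phgdh, against 13.6%. Psat1 has CCAAT in its more upstream window alone and the GC box in its other window alone. Counts by gene and shares of windows are therefore unlike measures. In the Phgdh window TATAAA overlaps the farther CCAAT by 1 letter and starts 189 bases before the start. The C/EBP-ATF response element TGATGNAA, the element through which Atf4 is known to act on amino acid genes, and the E-box CACGTG matched none of the 9 windows, against 3.97% and 7.15% of all windows. These are matches of letters in a window and say nothing of binding.

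The serine hydroxymethyltransferases differed between probe sets. The brightest of Shmt1, the cytosolic enzyme, read 66.2, 84.9 and 36.2 on positive arrays and 95.4, 148 and 89.8 on negative arrays. Every positive value was below the negative ones, with a log2 difference of -0.88 (SE 0.36, 95% interval from -1.65 to -0.11). The other tested probe sets of Shmt1 did not repeat this. One read 79.5, 67.5 and 52.1 against 56.5, 61.9 and 83.4 (-0.02, SE 0.32), and another 24.5, 20.01 and 16.9 against 21.2, 15.8 and 5.23 (0.75, SE 0.67). Both overlapped between groups. The fourth stayed under the filter on 5 of 6 arrays. With the spike-in split as a block, the difference of the brightest set was -1.58 (SE 0.43), since positive replicate 3 had the lowest signal of the 6 arrays.

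Shmt2, the mitochondrial enzyme, had 4 tested probe sets. The brightest read 183, 168 and 148 on positive arrays and 119, 102 and 147 on negative arrays. Positive values were all higher, but positive replicate 3 and negative replicate 3 differed by about 1 signal unit, and the log2 difference was 0.45 (SE 0.24, 95% interval from -0.07 to 0.97). A second set that did not overlap read 55.3, 58.8 and 59.0 against 51.8, 47.4 and 44.2 (0.27, SE 0.32). The other two overlapped, at -0.27 (SE 0.33) and 0.76 (SE 0.76). The one at -0.27 is the only probe set of Shmt2 without a mark for shared or cross-binding probes, so the sign of this gene depended on the probe set.

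The folate interconverting enzymes showed no gap between groups on their brightest probe sets. Mthfd1, the cytosolic enzyme with 3 activities, read 110, 187 and 176 on positive arrays and 90.4, 97.9 and 209 on negative arrays, a difference of 0.32 (SE 0.34, 95% interval from -0.41 to 1.06). Its other sets gave 0.16 (SE 0.44) and -0.03 (SE 0.58), and all 3 overlapped. Mthfd2, a mitochondrial enzyme known for high levels in embryonic and proliferating cells, had probe sets of opposite sign. One read 61.2, 70.7 and 88.4 on positive arrays and 64.9, 68.3 and 127 on negative arrays, or -0.18 (SE 0.33). The other read 47.6, 43.1 and 38.1 against 20.8, 27.3 and 29.2, or 0.75 (SE 0.40). The groups overlapped in the first and stood apart in the second, with positive arrays higher, so no direction is given for Mthfd2.

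Gldc was the faintest member and the most variable in positive cells. It read 37.6, 42.7 and 15.0 on positive arrays and 36.1, 66.3 and 38.6 on negative arrays. The groups overlapped and the difference was -0.64 (SE 0.48, 95% interval from -1.67 to 0.38). Positive replicate 3 was far below the other positive arrays. With the spike-in split as a block the difference was -1.59 (SE 0.56), which rests on that array.

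**Figure D2:**
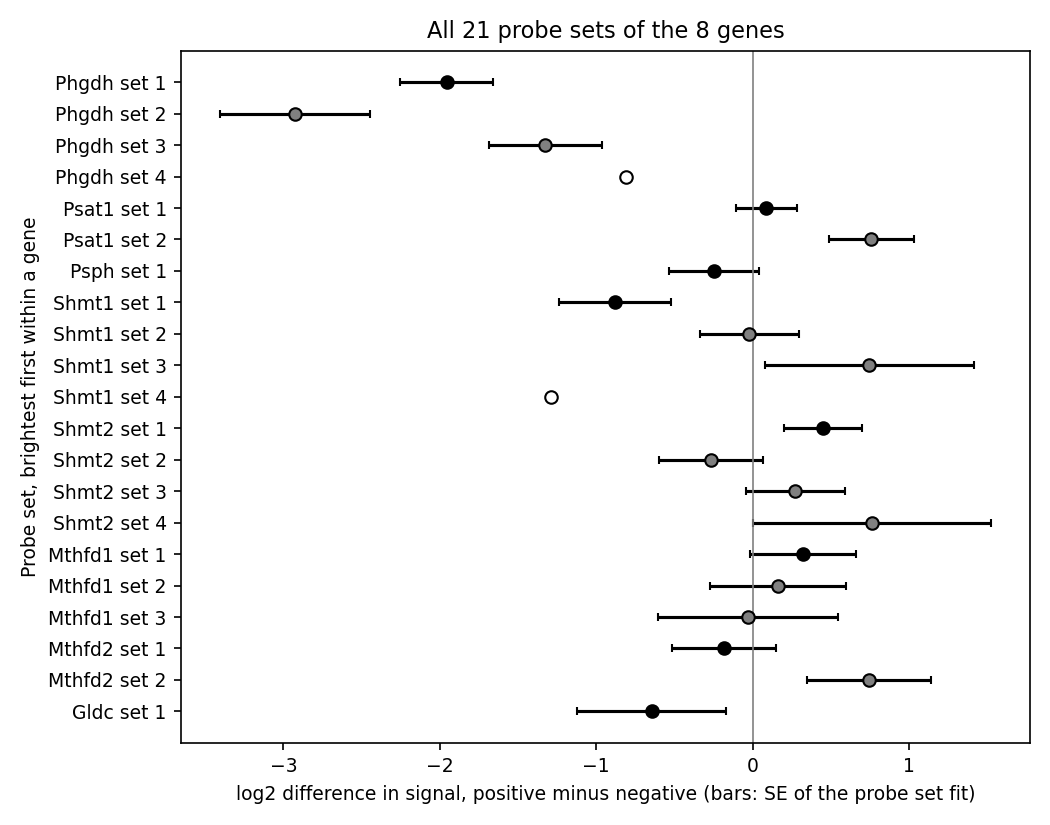
Log2 difference in signal, positive minus negative, for each of the 21 probe sets, brightest first within a gene. Bars are the SE of the fit across probe sets, black points are the sets that stand for their gene, grey points other tested sets and open points the 2 sets not tested. The 4 Phgdh sets lie between -2.93 and -0.81, while Shmt1, Shmt2, Mthfd1 and Mthfd2 each have sets on both sides of 0.

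All 8 members passed the filter, and 19 of the 21 probe sets did. Across the 8 genes, 5 differences were below 0 and 3 above, with a median of -0.21, against 0.03 over all 12047 tested genes. Phgdh was the 1 member past the threshold (Benjamini-Hochberg adjusted p under 0.05 over all genes), a count set beside 1.06% of tested genes that passed in either direction and 0.639% that were lower. Phgdh did not pass with no filter on dim probe sets, with no mean-variance trend, with the spike-in split as a block or within its higher side. Nothing is read from this count, because the gene was picked in this contrast. Groups did not overlap for 3 members, Phgdh and Shmt1 with positive arrays lower and Shmt2 with positive arrays higher, where 15.5% of tested genes had groups that did not overlap. Leaving Phgdh aside, the 16 tested probe sets of the other 7 genes had 7 values below 0 and 9 above. In 1 of the 16 every positive array was below the negative arrays, in 4 every positive array was above, and in 11 the groups overlapped. Of all 23177 tested probe sets, 6.24% had every positive array below and 8.28% had every positive array above. Several of the 16 report the same gene, so they are not independent, and their values lay on both sides of 0.

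Signals on the same array can be set against each other as a shift in their ratio. Relative to Phgdh, the log2 signal of Shmt2 was higher in positive than in negative cells by 2.41, that of Mthfd1 by 2.28, Psat1 by 2.05, Mthfd2 by 1.77 and Psph by 1.71. For these 5 genes the ratio on every positive array exceeded the ratio on every negative array. For Gldc and Shmt1 the shifts were 1.31 and 1.08 and the ratios overlapped. Each shift contains the Phgdh difference on which the gene was picked, so it describes the arrays and tests nothing.

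The neighbouring parts of metabolism were read from 8 lists of other genes, with 77 tested genes of 93 measured. None passed the threshold in the limma fit (Benjamini-Hochberg adjusted), and 8 had an unadjusted p under 0.05, 3 higher and 5 lower in positive cells, where 10.8% of all tested genes had such a p. Without a mean-variance trend in the fit none passed either. The median difference of the 77 was 0.06, and 34 were below 0 and 43 above. Each was read from 1 probe set. Among the genes named below, Paics, Serinc3, Atf4 and Trib3 were read from sets with names in _x_at, which can bind other transcripts.

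Partners of Gldc in glycine cleavage were measured through Gcsh, the lipoyl carrier protein (-0.33, SE 0.20), and Dld, the dihydrolipoamide dehydrogenase (0.28, SE 0.24). Gcsh read 658, 651 and 775 on positive arrays and 811, 799 and 1014 on negative arrays, which do not overlap, but it did not pass (adjusted p = 0.57). Of 11 folate carriers and folate enzymes 8 were below 0, with a median of -0.17. The brightest were Mthfd2l, a relative of Mthfd2 (-0.31, SE 0.22), and Aldh1l2, the mitochondrial formyl-folate dehydrogenase (-0.07, SE 0.26). The lowest was Slc46a1, a folate carrier of the plasma membrane, at 28.3, 19.3 and 22.1 on positive arrays and 74.9, 45.5 and 30.8 on negative arrays (-1.04, SE 0.44, adjusted p = 0.411).

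The 9 genes of the methionine cycle and transsulfuration had a median of 0.38, with 6 above 0. Ahcyl1, related to the enzyme that clears S-adenosylhomocysteine, was at 0.38 (SE 0.32) and Ahcy, that enzyme itself, at -0.17 (SE 0.20). The list ran from Bhmt (-0.71, SE 0.66), with overlapping groups, to Ahcyl2 (0.92, SE 0.35, adjusted p = 0.346). Ahcyl2 was the only gene of the list whose groups stood apart, with every positive array higher. Among 11 purine genes, which use folate-bound carbon, the median was 0.11. Their extremes were enzymes of the same route. Paics read 447, 583 and 586 on positive arrays and 655, 1226 and 1172 on negative arrays (-0.87, SE 0.26, adjusted p = 0.199). Pfas, which acts shortly before Paics, read 360, 295 and 229 against 158, 173 and 184 (0.76, SE 0.23, adjusted p = 0.217). Neither overlapped between groups and neither passed, and Gmps, the other bright gene of the list, was at 0.01 (SE 0.21).

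The 10 tested transporters of serine and glycine lay on both sides of 0, with 4 below, 6 above, a median of 0.07 and overlapping groups for every one. They ran from -0.51 (SE 0.83) for Slc1a5, a neutral amino acid exchanger, to 1.15 (SE 0.87) for Slc7a10, a small neutral amino acid exchanger, both faint. The brightest were the neutral amino acid carriers Slc38a1 at -0.05 (SE 0.20) and Slc38a2 at -0.32 (SE 0.21). Among 8 genes listed as users of serine, the median was -0.0048. The brightest, Serinc1 and Serinc3, were at 0.18 (SE 0.19) and -0.53 (SE 0.24). Their family was named for incorporating serine into membrane lipids, and whether they use serine was not measured. Glycolysis, which supplies the substrate of Phgdh, had a median of 0.18 over 14 genes, with 4 below 0 and 10 above. The brightest were Ldhb at -0.32 (SE 0.22) and Pgam1, the enzyme acting on 3-phosphoglycerate in competition with Phgdh, at -0.30 (SE 0.23). The list ran from Hk2 (-0.49, SE 0.25) to Hk1 (0.86, SE 0.47). Groups stood apart for Hk2, lower in positive cells, and for Tpi1 (0.17, SE 0.19), higher. None of these passed the threshold.

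Atf4 is a transcription factor that is known to raise Phgdh, Psat1, Shmt2 and Mthfd2 when amino acids are short. Its signal was 861, 606 and 1598 on positive arrays and 1606, 2112 and 1338 on negative arrays (-0.82, SE 0.32, adjusted p = 0.359). Positive replicates 1 and 2 were low and positive replicate 3 lay among the negative arrays. Without positive replicate 3 the difference was -1.20 and passed (adjusted p = 0.0155), but there the spike-in split separates the same arrays as the group. Of the 77 tested list genes it was the 1 that passed there. Of all 12047 tested genes 419 did, 334 of them lower in positive cells. Of the 12 tested genes of the Atf4 list the median was -0.04. Trib3, a pseudokinase induced by Atf4, was under the filter on all 3 positive arrays and above it on the negative ones, at least 2.9-fold lower (adjusted p = 0.12). The other gene of the list whose groups stood apart went the opposite way. It was Eif4ebp1, a repressor of translation, at 28.1, 16.2 and 20.9 on positive arrays and 6.71, 6.14 and 14.9 on negative arrays (1.32, SE 0.65, adjusted p = 0.489). Eif4ebp1 was above the filter on only 1 negative array, so the size of its difference rests in part on dim signals. The other bright gene, Ddit4, was at -0.18 (SE 0.23).

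**Figure D3:**
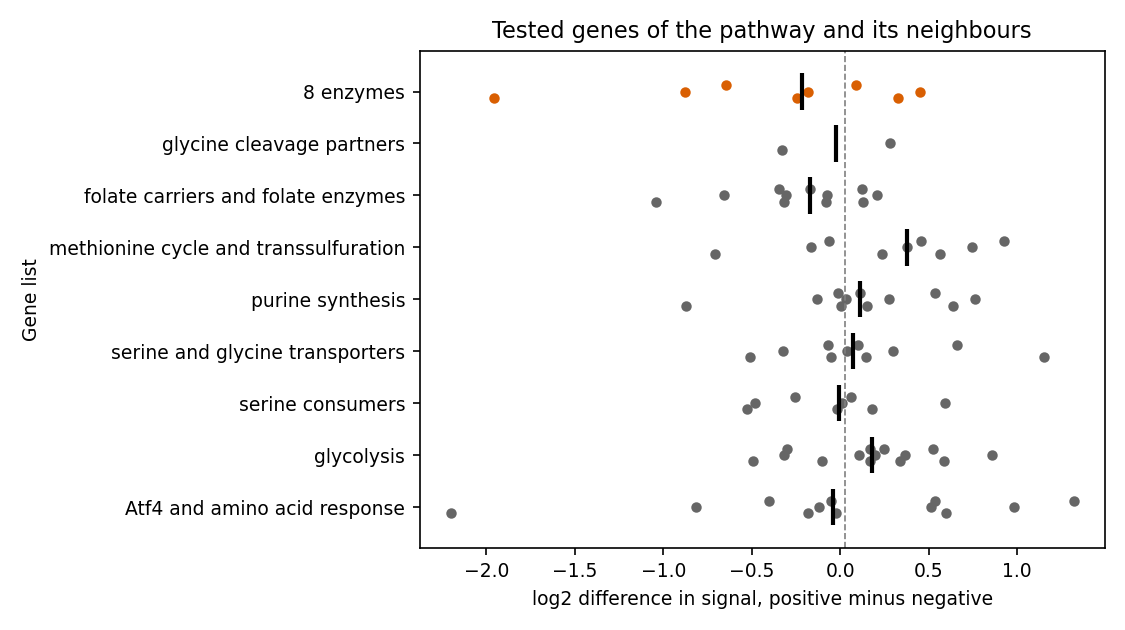
Log2 difference in signal, positive minus negative, for every tested gene of the 8 enzymes (orange) and of 8 lists of neighbouring genes (grey), with a black bar at each list's median and a dashed line at the median of all tested genes, 0.03. Phgdh at -1.96 and Trib3 at -2.20 are the lowest points, and list medians lie between -0.21 and 0.38.

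Markers of other cells moved with the group beside Phgdh. Of 12 tested radial glia markers, 2 were lower in positive cells and none was higher: Pax6, which encodes a transcription factor of dividing progenitors (-2.22, SE 0.34, adjusted p = 0.00696), and Fabp7, a fatty acid binding protein of radial glia (-1.18, SE 0.26, adjusted p = 0.0494). The summed signal of the 14 measured ranged from 5473 to 8178 on positive arrays and from 8964 to 11121 on negative arrays, Gfap was under the filter on all 6 arrays, and the list's median was -0.37. In all, 9 of the 12 were below 0 and 3 above, Hes1 (0.89, SE 0.80), Notch1 (0.30, SE 0.26) and Prom1 (0.28, SE 0.24). Over all tested genes 1.06% passed, 10.8% had an unadjusted p under 0.05 and 15.5% had groups that did not overlap. Of the 12 markers, 5 had an unadjusted p under 0.05, all 5 lower in positive cells, and the groups stood apart for 4. Besides Pax6 and Fabp7 these 4 were Slc1a3, a glutamate carrier of glia (-0.88, SE 0.36, adjusted p = 0.388), and Sox9, a transcription factor of progenitors and glia (-0.72, SE 0.26, adjusted p = 0.319). Of 13 proliferation genes and 12 neuron markers none passed, with medians of -0.12 and -0.16. The brightest were Mki67 (-0.32, SE 0.23) and Tubb3 (-0.30, SE 0.27). The groups stood apart for 3 neuron markers. Nefm (0.76, SE 0.20) and Gap43 (0.65, SE 0.21) were higher in positive cells, and Map2 (-0.73, SE 0.22) was lower. They also stood apart for 2 proliferation genes, Mcm2 (-0.88, SE 0.26) and Top2a (0.30, SE 0.23). The sums of both lists overlapped between groups, at 4309 to 5098 and 4494 to 5829 for proliferation. Of 4 tested endothelial and mesenchymal markers, with Col1a2 the brightest (-0.08, SE 0.43), none passed, 6 of the 12 measured were under the filter on all 6 arrays, and their sums overlapped, from 106 to 162 in the positive group and from 100.1 to 132 in the negative group. The parts of radial glia, erythroid cells and macrophages in the Phgdh difference were not tested.

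The 6 genes whose profile over the 6 arrays was most like that of Phgdh were found among 12039 other tested genes by the root mean square difference of log2 signals centred on each gene's mean. They were Fcgr1 (0.152), an Fc receptor of macrophages, the chloride channel gene Ano1 (0.237), Pxdc1 (0.274), the interferon-induced gene Rsad2 (0.294), Etv5, a transcription factor downstream of Fgf signalling (0.327), and Slco2b1 (0.35), an organic anion carrier. All 6 had every positive array below the negative arrays, which the measure favours, and Pxdc1 passed the threshold (-1.81, SE 0.29, adjusted p = 0.00807). Fcgr1 and Slco2b1 were under the filter on all 3 positive arrays, at least 1.68-fold and at least 2.55-fold lower there than on the negative arrays, and did not pass. Ano1 was above the filter on 1 positive array and Rsad2 on 2, so the distances of these 4 genes rest in part on signals too dim to order, and the ranking is a description built on the Phgdh values themselves. The closest member was Shmt1 at 0.837, with 941 other genes closer to Phgdh, and Psat1 was at 1.09, with 4996 closer.

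The values of the members were recomputed under 17 other ways of processing. Phgdh kept its sign in all 16 that could measure it, from -2.24 to -1.62. These are not 16 separate estimates. The settings for filter, trend and replicate block returned the reported difference of each member, and both uses of the spike-in split gave the same one. Leaving out all probe sets with names in _s_at, _x_at or _a_at left no probe set for Phgdh or for Psat1. Psat1 lay between 0.03 and 0.43, Psph between -0.50 and -0.12 and Gldc between -1.59 and -0.17, each on 1 side of 0 throughout. Shmt1 was below 0 throughout but went from -1.58 to -0.05. Shmt2, Mthfd1 and Mthfd2 took both signs, from -0.27 to 0.59, -0.03 to 0.71 and -0.36 to 0.28.

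**Figure D4:**
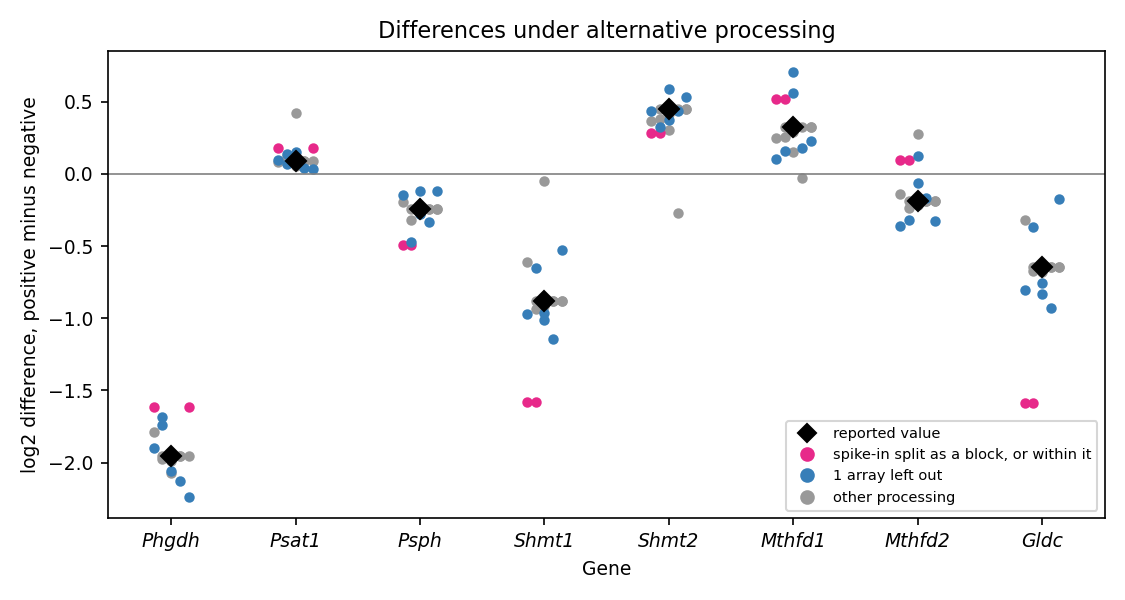
Log2 difference, positive minus negative, of the 8 genes as reported (diamond) and under alternative processing (dots; pink for the spike-in split, blue for 1 array left out, grey for other choices). Phgdh stays between -2.24 and -1.62, and the lowest values of Shmt1 and Gldc, -1.58 and -1.59, come where the spike-in split is taken into account.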

How the data were processed

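The deposited intensity values are MAS5 signals per probe set on a linear scale, made by the authors. MAS5, limma and R 2.14.2 appear in the submitters' processing notes. The 2% trimmed mean is 100 on every array, so total RNA per cell is not measured. Their versions of MAS5 and limma were not stated there. Probe sets were named from the platform annotation (34957 with 1 symbol, 920 with several, 9160 with none).

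Log2 signals were computed here after a floor of 1. Probe sets over the 40th percentile on at least 3 arrays were tested, each gene by its brightest, for 12047 genes. The comparison used limma 3.58.1 under R 4.3.3 (trend, two-sided, 4 residual degrees of freedom, Benjamini-Hochberg adjustment over all genes, threshold 0.05). SEs of other probe sets came from the same model over 23177 probe sets. For a gene under the filter throughout a group, the bound ("at least") sets that group at the filter level where its signal is lower. The fit was tested on simulated data.

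Members and lists were chosen with earlier results of these data known. Named were all members, the 2 brightest genes of a pathway list where none passed, up to 3 passing genes of a marker list (or else its brightest) and the 6 genes closest to Phgdh. List extremes, Tpi1, Eif4ebp1, Slc1a3, Sox9, Hes1, Notch1, Prom1, Nefm, Gap43, Map2, Mcm2 and Top2a were added after their values were seen. Genes of the lists that the annotation does not name alone on a probe set were not analysed here. Figures used matplotlib 3.10.9 in Python 3.11.15.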

Additional observations from a re-analysis of the deposited data

How the results depend on the processing

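The 17 alternatives changed normalization, filter, log offset, trend, probe set choice, blocks and arrays. Of 134 values of the 8 enzymes, 126 moved by less than 1 SD of the replicates. This count overstates the number of separate checks. The settings for filter, trend and replicate block returned each enzyme's reported difference, and both uses of the spike-in split gave the same differences. The number of genes past the threshold, 128 in the reported fit, was 19 with no filter on dim probe sets, 42 with no trend, 34 with the spike-in split as a block and 38 within its higher side. Without 1 array it ranged from 58 to 419, the highest without positive replicate 3. The count of members past the threshold went from 1 to 0 with no filter, with no trend and with the spike-in split as a block. It was also 0 without the _s_at, _x_at and _a_at probe sets, where Phgdh has none. It stayed at 1 without each array. Of the other pathway genes 0 passed as reported and 1, Atf4, without positive replicate 3. With the replicate number as a block 127 genes and 1 member passed and 0 pathway genes did. The deviations of same-numbered arrays correlated at 0.139, -0.0962 and 0.0323, so the numbers were not taken as pairs. Signals under 10.2 to 15.8 set the limit of what could be compared.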
